A study of Mus musculus with 2 samples.

Results

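The let-7 and miR-98 5p family is the set of mature microRNAs cut from the 5′ arm of the let-7 and miR-98 precursors, and its members share a seed, the bases by which a microRNA recognises its targets. The array carried 9 such probes among 1265 mature miRNA probes: mmu-let-7a-5p, mmu-let-7b-5p, mmu-let-7c-5p, mmu-let-7d-5p, mmu-let-7e-5p, mmu-let-7f-5p, mmu-let-7g-5p, mmu-let-7i-5p and mmu-miR-98-5p. They were chosen by name, and the species prefix is left out below. The RNA came from mouse embryonic stem cells of line CRL-1934 (strain 129S2/SvPas), held in suspension in ultra-low attachment dishes so that they form embryoid bodies, aggregates in which stem cells differentiate. Both groups had the same medium with 15% fetal bovine serum, and the groups were day 0 and day 10 of differentiation, each with 1 single-colour Cy5 array and therefore no replicate. Errors below are the SD over the 3 spots of a probe on an array, which holds none of the variation between cultures. The days are therefore compared without a test or p-value. One line was studied, and embryoid bodies hold a mixture of cell types.

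As background, let-7 miRNAs are transcribed in stem cells, but the RNA-binding protein LIN28 holds back the processing of their precursors. When LIN28 falls during differentiation, mature let-7 accumulates and represses mRNAs of growth and of the early embryo, among them Hmga2, Myc and Lin28 itself. The family is therefore known as a marker of the way out of pluripotency, and its members are spread over several genomic clusters, some shared with miR-99, miR-100 and miR-125.

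The target sequences of the 9 probes, 22 bases each, show how little separates the members, which bears on how far a probe can be read as 1 miRNA. They are written 5′ to 3′ with the seed (bases 2 to 8, counted from 1 at the 5′ end) in capitals. All 9 targets are identical to the mature sequences that RefSeq gives on build GRCm38.p6.
let-7a-5p: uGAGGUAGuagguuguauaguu
let-7b-5p: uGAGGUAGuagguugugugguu
let-7c-5p: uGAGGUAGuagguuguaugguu
let-7d-5p: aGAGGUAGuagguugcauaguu
let-7e-5p: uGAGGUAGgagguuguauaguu
let-7f-5p: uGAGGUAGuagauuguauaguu
let-7g-5p: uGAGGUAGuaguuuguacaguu
let-7i-5p: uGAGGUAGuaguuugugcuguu
miR-98-5p: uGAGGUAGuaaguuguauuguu

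All 9 had the seed GAGGUAG. Relative to let-7a-5p, the changes were A17G and A19G in let-7b-5p, A19G in let-7c-5p, U1A and U16C in let-7d-5p, U9G in let-7e-5p and G12A in let-7f-5p. They were G12U and U18C in let-7g-5p, G12U, A17G, U18C and A19U in let-7i-5p, and G11A and A19U in miR-98-5p. None lay within the seed.

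In GRCm38.p6 the members mapped to 8 loci. The cluster with the most members lay on chromosome 13 on the minus strand, within no other gene of the table used, with let-7a-5p at chr13:48538239-48538260, let-7f-5p at chr13:48537889-48537910 and let-7d-5p at chr13:48536078-48536099. On chromosome 15, let-7c-5p (chr15:85706616-85706637) and let-7b-5p (chr15:85707325-85707346) lay within the long noncoding gene Lncppara. On the X chromosome, a second let-7f-5p copy (chrX:151912353-151912374) and miR-98-5p (chrX:151913229-151913250) lay within Huwe1, which encodes a ubiquitin ligase. let-7g-5p (chr9:106178846-106178867) lay within Wdr82, let-7e-5p (chr17:17830366-17830387) within Spaca6, and the precursor Mirlet7a-2 (chr9:41536716-41536811) within the miRNA host gene Mir100hg. let-7i-5p (chr10:122985698-122985719, minus strand) and a second let-7c-5p copy (chr16:77599672-77599693) likewise lay within no other gene. The annotation used gives gene spans only, so exons and introns were not told apart. A probe reads the sum of all copies, since copies of let-7a, let-7c or let-7f give the same mature sequence.

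Of the 9 members, 8 were detected on both arrays. Detection required a median spot signal over the threshold set by the 5 blank spots (their 95th percentile), 70.0 for the day 0 array and 71.4 for the day 10 array. miR-98-5p was not detected on either array. Over all 1265 probes, 738 were detected on day 0 and 476 on day 10, and 739 on at least 1 array. The deposited signal of those 739 was higher on day 0 than on day 10 by a median ratio of 1.71, while the 19 spike-in probes had a median log2 ratio, day 10 over day 0, of -0.25 (SD 0.15 over probes). The 5 probes for 5S rRNA, the other control, went the other way, with a median of 0.15 (SD 0.21 over probes). Among the markers of embryonic stem cells, 17 of 24 probes of the miR-290 and miR-302 clusters were detected on both arrays.

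The 8 detected members were all dimmer on day 10. Fewer cells that carry a miRNA and less of it per cell cannot be told apart in such bulk RNA. let-7i-5p had the largest ratio of them. Its 3 spots read 780, 700 and 659 on day 0 and 80.7, 80.5 and 81.7 on day 10, a ratio of 8.81 in deposited signal. The day 10 median was 1.13 times the detection threshold, so the signal there was close to background. In deposited signal only 9 of the 739 detected probes had a larger ratio.

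let-7b-5p, which differs from let-7c-5p at a single base, read 470, 444 and 470 on day 0 and 91.4, 90.3 and 88.1 on day 10, a ratio of 5.13. let-7c-5p itself read 313, 286 and 281 on day 0 and 92.6, 89.3 and 89.0 on day 10, a ratio of 3.25. In both, the spots of the 2 days were far apart and the day 10 spots lay within a few units of each other. Their day 10 medians were 1.26 (let-7b-5p) and 1.25 (let-7c-5p) times the detection threshold, so these signals too were close to background.

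The 3 members of the chromosome 13 cluster, of which let-7a-5p and let-7f-5p also have copies elsewhere, had like ratios. let-7a-5p read 600, 569 and 579 on day 0 and 177, 170 and 175 on day 10, a ratio of 3.35. let-7f-5p read 568, 563 and 521 on day 0 and 156, 151 and 164 on day 10, a ratio of 3.51. let-7d-5p, the member that starts with A, read 541, 528 and 488 on day 0 and 148, 141 and 146 on day 10, a ratio of 3.58. No day 10 spot of these 3 probes reached any of its day 0 spots.

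let-7g-5p and let-7e-5p had the smallest ratios among the detected members. let-7g-5p read 556, 538 and 500 on day 0 and 180, 228 and 240 on day 10, a ratio of 2.46. Its day 10 spots were the most scattered of the family, with 1 spot well below the other two. let-7e-5p read 235, 221 and 225 on day 0 and 102, 110 and 96.8 on day 10, a ratio of 2.20. Its day 10 median was 1.43 times the detection threshold. The undetected miR-98-5p read 67.9, 58.1 and 54.3 on day 0 and 46.1, 39.7 and 41.1 on day 10, all below the thresholds, and no fold is given for it. In deposited signal the day 10 spots of all 9 members lay below their day 0 spots, as did those of 79.3% of all 1265 probes, so the separation of the raw spots is shared with most of the array.

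**Figure D1:**
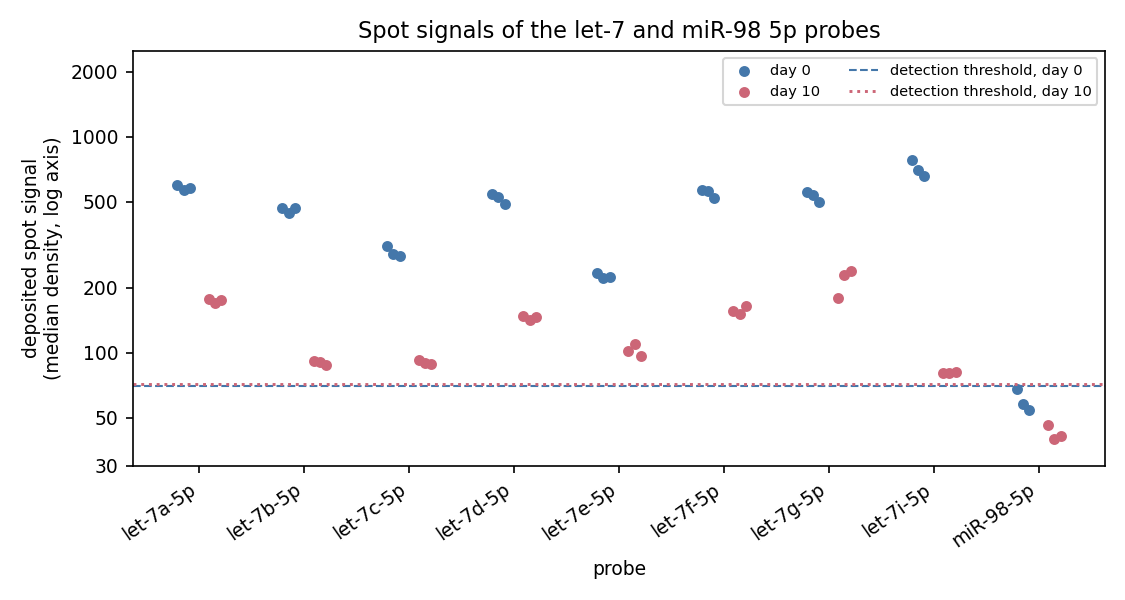
Deposited signal of each of the 3 spots (points, log axis) of the 9 family probes on the day 0 array (blue) and the day 10 array (red), with the detection threshold of each array as a line. The 8 detected members lie lower on day 10, let-7i-5p lies just above the threshold of 71.4 there, and miR-98-5p lies below both thresholds.

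Because most miRNA probes were dimmer on the day 10 array, the members were next compared after background correction (normexp with an offset of 50), log2 transformation and quantile normalization between arrays. Differences are then relative to the bulk of miRNAs, and the offset makes those of dim probes too small. On this scale all 9 members were below 0, with a median log2 difference, day 10 minus day 0, of -0.62, against 0.024 for the 739 detected probes. Below 0 were 48.7% of these and 43.6% of all 1265 probes. The median over the 8 detected members was also -0.62.

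At least 2-fold lower on day 10 were 2 of the 9 members, against 6.09% of all probes and 10.4% of the detected ones. None was at least 2-fold higher, against 3.95% of all probes and 6.77% of the detected ones. let-7i-5p was 3.88-fold lower (log2 difference -1.96, SD 0.12), the eleventh lowest of the 739 detected probes. let-7b-5p was 2.34-fold lower (-1.22, SD 0.054), and 7.31% of the detected probes had a lower value. The 2 members are on different chromosomes and differ from each other at 3 bases. All 3 normalized day 10 spots lay below the 3 day 0 spots in 6 members, against 24.7% of all probes and 38% of the detected ones. They lay above them in none, against 28.7% of all probes. The exceptions to the first count were let-7e-5p, let-7g-5p and miR-98-5p.

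A group of 4 members had nearly the same difference. let-7d-5p was 1.57-fold lower (-0.65, SD 0.085), let-7c-5p 1.54-fold (-0.62, SD 0.036), let-7f-5p 1.53-fold (-0.62, SD 0.12) and let-7a-5p 1.48-fold (-0.56, SD 0.026). Neighbours in this order differed by 0.0047 to 0.056, less than their combined spot SD. let-7a-5p and let-7c-5p, not neighbours in it, had a gap of 0.061 (SD 0.044), which is beyond that spread of paired differences. The log2 levels of the let-7c-5p spots had an SD of 0.066 on the day 0 array alone, which is larger than this gap. The group holds the 3 members of the chromosome 13 cluster and let-7c-5p, whose precursors lie on chromosomes 15 and 16. The probes of let-7a-5p and let-7f-5p also read copies on chromosomes 9 and X.

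let-7g-5p (-0.16, SD 0.27) and let-7e-5p (-0.11, SD 0.13) were within about 1 spot SD of 0. The order of the differences from the lowest among the 8 detected members was therefore let-7i-5p, let-7b-5p, the group of 4, and then let-7g-5p and let-7e-5p. miR-98-5p, below the threshold on both arrays, has no place in it. The first steps of 0.73 and 0.57 and the step of 0.40 from let-7a-5p to let-7g-5p were beyond the spot SD. let-7g-5p and let-7e-5p differed by 0.054, less than it. A difference beyond the spot SD is not a difference between cultures, which 1 array a day cannot show.

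**Figure D2:**
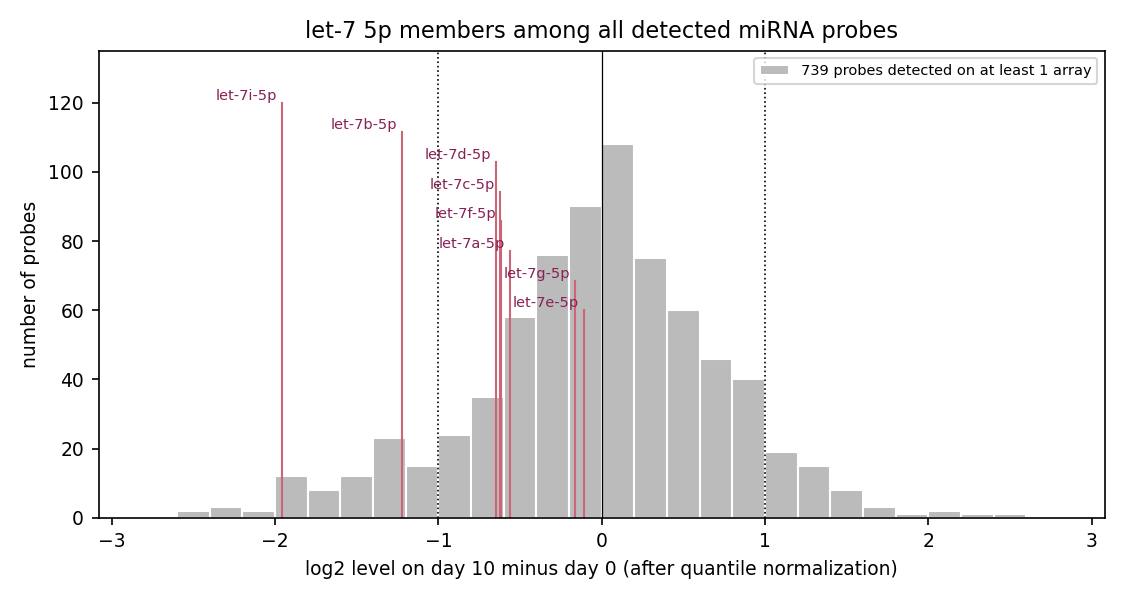
Histogram of the log2 difference, day 10 minus day 0, after quantile normalization for the 739 probes detected on at least 1 array, with the 8 detected family members as red lines, whose heights only space the labels, and 2-fold differences as dotted lines. let-7i-5p (-1.96) and let-7b-5p (-1.22) lie beyond 2-fold, and let-7g-5p and let-7e-5p lie near 0.

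The values of markers of other cells stand beside this result. Of 19 probes for miRNAs of fibroblasts and mesenchyme, such as miR-199a and miR-221, 9 were at least 2-fold lower on day 10, against 6.09% of all probes. In that list 0 were at least 2-fold higher, against 3.95%. The 19 had a median log2 difference of -0.95, and their summed median spot signal was 15115 on day 0 and 2971 on day 10. The 9 family members summed to 3947 on day 0 and 1109 on day 10. The stem cell markers had 4 of 24 probes at least 2-fold higher, against 3.95% of all probes, and 0 lower, against 6.09%. They had a median log2 difference of 0.37 and summed signals of 82915 on day 0 and 67479 on day 10. Of 4 neural probes the 2 detected had a median of 0.67, but -0.0071 without normalization. The 4 summed to 311 on day 0 and 283 on day 10, and 0 of them passed a doubled detection threshold on either array. Of 7 heart and muscle probes the 1 detected was at -1.12, with sums of 960 and 370. Of 5 blood probes 2 were detected on day 0 and 0 on day 10. Those 2 were at -0.94 and 0.081, with a median of -0.43, while the median over the 5 was -0.037. The 5 summed to 419 on day 0 and 237 on day 10. The part of such cells in the let-7 values was not tested.

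How far the members carry separate signals can be read from pairs of probes. Close sequences can bind each other's probes, and probe specificity was not measured here. Over the 28 pairs of detected members, the gap between the log2 differences of the pair was beyond the combined spot SD in 22. That count uses the SD of paired spot differences, and for some probes the spread of spots on each array alone is larger. The pair of let-7a-5p and let-7c-5p, described above, is among the 22. The 4 pairs that differ by 1 base had gaps of 0.056 to 0.60, and the 8 pairs that differ by 2 bases had gaps of 0.0047 to 1.79. let-7b-5p and let-7c-5p (G17A) had a gap of 0.60 (SD 0.065). Their log2 levels were 8.36 and 7.77 on day 0 and both 7.14 on day 10, close to background. That gap thus lies in their day 0 levels, and a floor on day 10 could hide how far each one fell. let-7g-5p and let-7i-5p (A17G and A19U) had the gap of 1.79 (SD 0.29). By contrast, let-7c-5p and let-7d-5p, which differ at 3 bases, had a gap of 0.027 (SD 0.092). The pairs share members, so they are not independent, and no correlation is given for them.

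**Figure D3:**
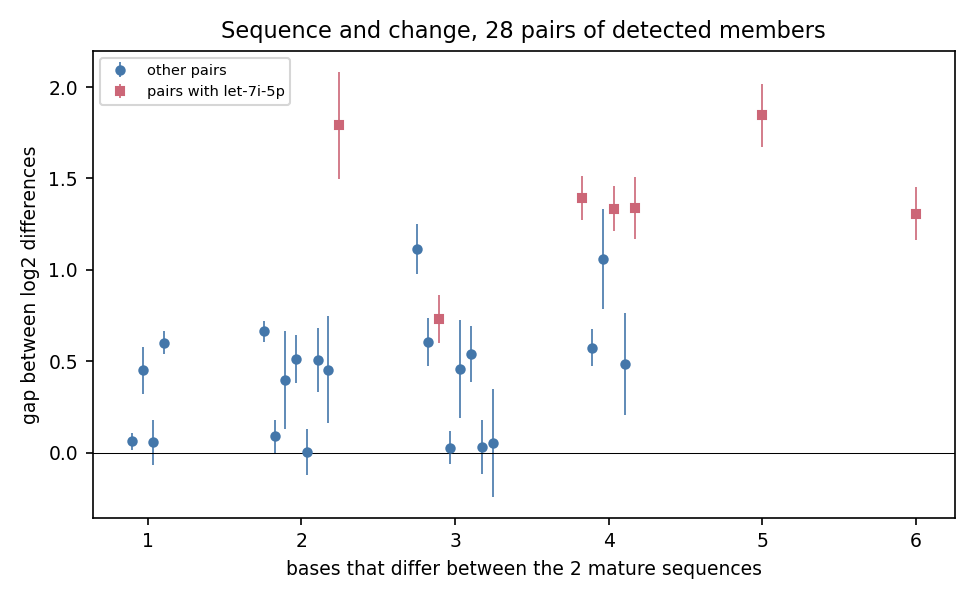
Gap between the log2 differences of 2 members (vertical) against the number of bases that differ between their mature sequences (horizontal, points spread sideways for view) for the 28 pairs of detected members, with the combined spot SD as bars. All 7 pairs with let-7i-5p (red squares) have gaps of 0.73 or more, including its pair with let-7g-5p, which differs at 2 bases.

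Other probes of the array resemble the family and give a further view of let-7i-5p and let-7e-5p. They are shown with bases 2 to 8 in capitals, since let-7k and miR-1961 share the seed and let-7j does not.
let-7j: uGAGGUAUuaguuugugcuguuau
let-7k: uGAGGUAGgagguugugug
miR-1961: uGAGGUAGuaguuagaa

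let-7j, named here after its values were seen, matches let-7i-5p over its first 22 bases but for G8U and ends with 2 more bases. Its spots read 608, 548 and 536 on day 0 and 67.1, 68.3 and 74.5 on day 10, where it was not detected. It was at least 3.58-fold lower (log2 difference -1.84, SD 0.17), and its gap to let-7i-5p was 0.12 (SD 0.21). let-7k matches the first 19 bases of let-7e-5p but for A17G and A19G and differs from let-7b-5p there by U9G alone. It read 285, 247 and 261 on day 0 and 122, 131 and 141 on day 10, a log2 difference of 0.071 (SD 0.18). Its gap was 0.18 (SD 0.22) to let-7e-5p and 1.30 (SD 0.18) to let-7b-5p. miR-1961 was not detected on either array.

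Across these sequences, the base at position 17 was G in let-7b-5p, let-7i-5p, let-7j and let-7k and A in the other 7 members and miR-1961. Both members with G were at least 2-fold lower and none of the 7 with A was. This split was seen after the values, and let-7k, with G and a difference of 0.071, did not follow it. let-7b-5p has 10 G or C bases and let-7i-5p 9, and the other members have 7 to 9.

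The opposite arms of the precursors were mostly too dim to read. The array had 11 probes for let-7 and miR-98 3p arms, of which day 0 detected 6 and day 10 detected 1. The median log2 difference of the 11 was -0.037, and that of the 6 was -0.069. At least 2-fold lower was 1 of the 11, let-7d-3p, against 6.09% of all probes, and none was higher, against 3.95%. let-7d-3p read 720, 697 and 666 on day 0 and 118, 109 and 98.1 on day 10, with a log2 difference of -1.51 (SD 0.099). The difference of let-7d-3p minus that of let-7d-5p, from the same precursor, was -0.86 (SD 0.13).

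let-7g-3p read 181, 186 and 197 on day 0 and 59.3, 60.1 and 62.2 on day 10, where it was not detected. It was at least 1.42-fold lower, with a log2 difference of -0.68 (SD 0.0054) beside -0.16 for let-7g-5p. The log2 levels of the let-7g-3p spots had an SD of 0.039 on the day 0 array alone and 0.042 on the day 10 array alone. let-7i-3p, the opposite arm of the member with the lowest value, was not detected on either array. The other 3p arms detected on day 0 had log2 differences of -0.10 for let-7a-1-3p, which also matches let-7c-2-3p, -0.037 for let-7e-3p, 0.13 for let-7b-3p and 0.13 for miR-98-3p. On day 0 these 4 read 62.6 to 89.9 over their spots, close to the threshold of 70.0, so a decrease in them was not detectable at this signal. let-7a-2-3p, let-7c-1-3p, let-7f-1-3p and let-7f-2-3p were not detected.

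Several members are made from transcripts that also carry miR-99, miR-100 or miR-125 miRNAs, the last known from neural and mesenchymal cells. The 11 probes of these partners had 7 detected. Of the 11, 2 passed 2-fold towards lower, against 6.09% of all probes, and 0 towards higher, against 3.95%. In the chromosome 9 cluster, which spans 50565 bases, let-7a-5p stood beside miR-100-5p (-0.70, SD 0.079) and miR-125b-5p (-2.56, SD 0.050), the lowest value of all 739 detected probes. miR-100-5p was at least 1.10-fold lower, since day 10 did not detect it. In the chromosome 16 cluster, let-7c-5p stood beside miR-99a-5p (-0.59, SD 0.099, at least 1.01-fold lower) and the same miR-125b-5p probe, which reads the copies of both clusters.

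The chromosome 17 cluster, which packs miR-99b, let-7e and miR-125a into 683 bases, had other values. There miR-99b-5p was at 0.52 (SD 0.069) and miR-125a-5p at 0.27 (SD 0.0093), beside -0.11 for let-7e-5p. The log2 levels of the miR-125a-5p spots had an SD of 0.15 on each array alone, and those spots overlapped between the days. miR-99b-5p read 635, 602 and 550 on day 0 and 411, 392 and 384 on day 10. miR-125a-5p read 896, 964 and 1088 on day 0 and 502, 540 and 596 on day 10. In deposited signal both were thus dimmer on day 10, and they were above 0 only relative to the bulk. Each was below 0 under 3 of 14 settings. Of their opposite arms, miR-99b-3p was lower, at -1.69 (SD 0.041). miR-125a-3p was not detected on day 10, and its deposited signal ratio, day 0 over day 10, was 1.78 beside 1.80 for miR-125a-5p.

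**Figure D4:**
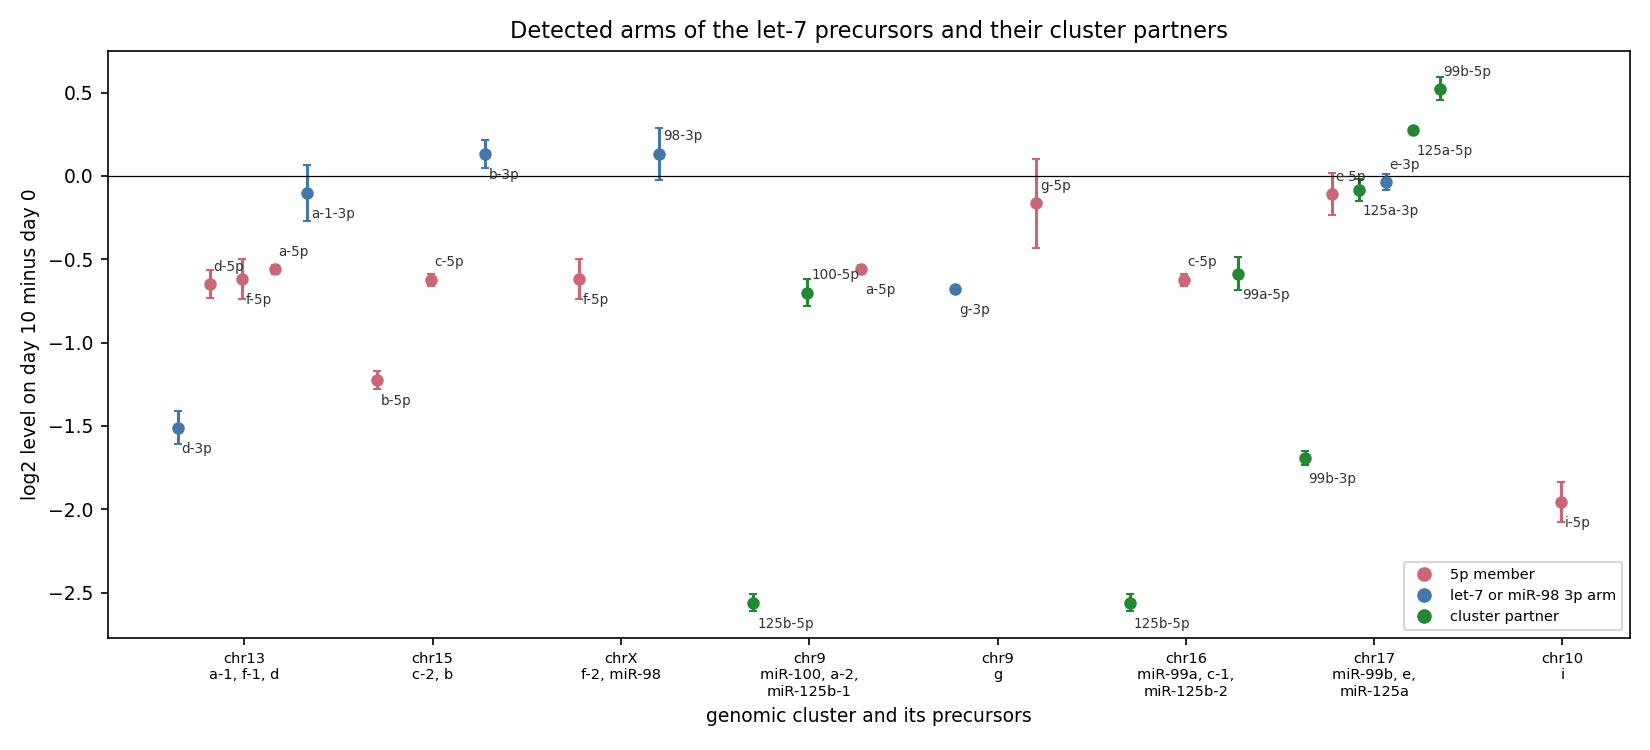
Log2 difference, day 10 minus day 0, with SD over the 3 spot differences, for every detected arm of the let-7 and miR-98 precursors (red 5p members, blue 3p arms) and of their cluster partners (green), grouped by genomic cluster. Probes that read copies in 2 clusters (let-7a-5p, let-7c-5p, let-7f-5p and miR-125b-5p) are drawn in both. The chromosome 17 cluster holds the values above 0 of the 5p arms, miR-99b-5p and miR-125a-5p.

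LIN28 is known to bind the bases between the arms of let-7 precursors, where it recognises the letters GGAG. Those bases are shown, with GGAG in capitals, for let-7i and let-7b, whose members passed 2-fold, for both let-7c precursors, of which 1 has the letters, and for let-7e, the detected member nearest to 0.
Mirlet7i: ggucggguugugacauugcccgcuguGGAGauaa
Mirlet7b: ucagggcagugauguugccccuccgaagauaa
Mirlet7c-1: uagaguuacacccugGGAGuuaa
Mirlet7c-2: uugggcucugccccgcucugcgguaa
Mirlet7e: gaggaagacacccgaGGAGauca

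These stretches lie at chr10:122985664-122985697, chr15:85707347-85707378, chr16:77599694-77599716, chr15:85706638-85706663 and chr17:17830388-17830410. GGAG, searched on the RNA strand alone since the factor binds RNA, occurred between the arms in 9 of the 12 let-7 and miR-98 precursors. It occurred in 8.22% of the 645 mouse precursors of the RefSeq table with both arms located. The 3 without it were Mirlet7b, Mirlet7c-2 and Mir98. Members with the letters spanned the whole range of differences, from let-7i-5p at -1.96 to let-7e-5p at -0.11, and let-7b-5p without them was at -1.22. A match is a description of the sequence, and LIN28 was not measured.

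Across 14 settings of background correction, normalization and spot summary, the family median was below 0 in all. It ran from -1.78 to -0.54, and, minus the median over the detected probes, from -1.01 to -0.33. let-7i-5p had the lowest value of the family in all 14. It ran from -3.54 to -1.85. let-7a-5p, let-7b-5p, let-7c-5p, let-7d-5p and let-7f-5p were also below 0, and below the median of all detected probes, in all 14. let-7e-5p and let-7g-5p were below 0 in 13 each. They were below the median of the detected probes in 13 and 12 settings, and reached 0.31 and 0.32 above it. With blank spots subtracted, 6 of the 9 members were below that median. let-7e-5p turned to 0.030 with the second spot alone and let-7g-5p to 0.066 with the third spot alone. Without normalization 7 of the 9 members and 232 of all 1265 probes were at least 2-fold lower. In the main setting 2 members and 77 probes were, so the count rose over the whole array too.

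**Figure D5:**
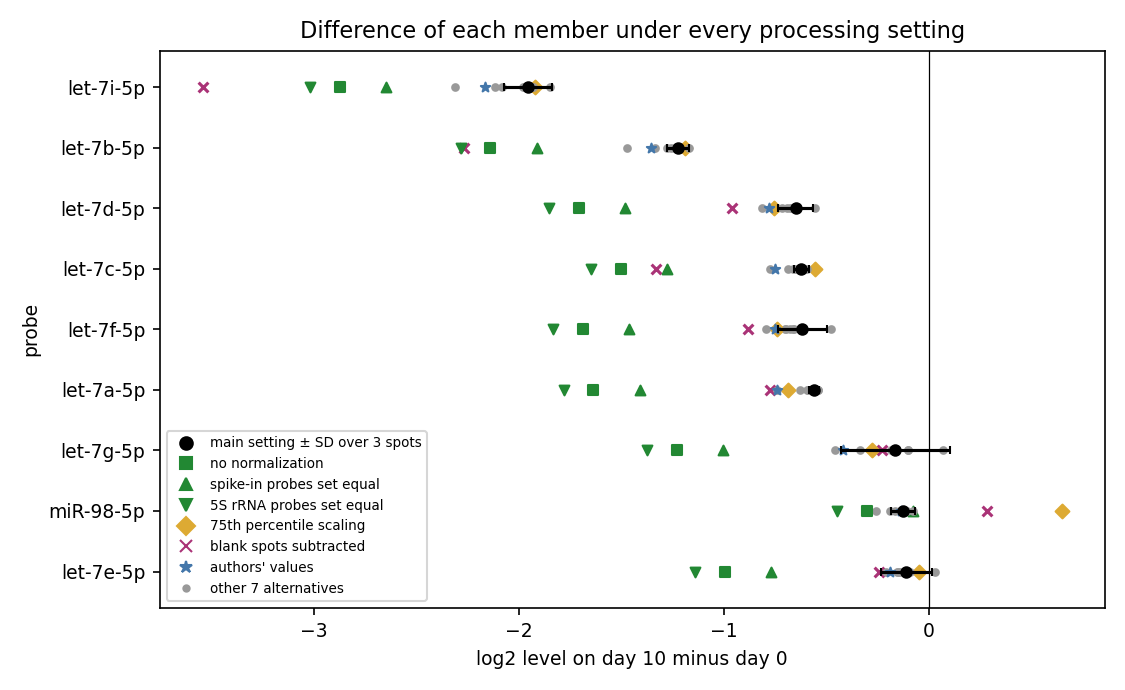
Log2 difference, day 10 minus day 0, of each member in the main setting (black, with SD over the 3 spot differences) and under 13 alternatives. Settings that leave the dimmer day 10 array unscaled or tie it to control probes (green) place the 8 detected members lower than the main setting does, while miR-98-5p, not detected, is at -0.08 tied to spike-in probes beside -0.13 in the main setting. let-7i-5p has the lowest value throughout.

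The 5 other probes detected on both arrays whose difference was nearest to the family median were miR-3473e, miR-1907, miR-367-5p, miR-652-5p and miR-700-3p. They lay within 0.033 of it, and miR-367-5p is also one of the stem cell markers above. The likeness rests on 1 difference between 2 arrays. miR-1907, for instance, read 691, 766 and 863 on day 0 and 209, 216 and 238 on day 10, a log2 difference of -0.63 (SD 0.065).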

How the data were processed

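Total RNA of day 0 and day 10 was labelled with Cy5 and hybridised to 1 array per day that held the miRNAs of miRBase release 19, per the labels. The deposited scanner files give a linear intensity, the median density per spot, for 3968 spots, 3 per miRNA probe, per the file headers. A background subtraction is stated nowhere in them or in the labels. Spot intensity ran from 33.6 to 55402 on day 0 and from 31.6 to 52557 on day 10. The deposited series table gives an intensity per probe processed by the authors, with scale, background subtraction and centring unstated. These values, raised by 50 before log2, served as an alternative.

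Signals were corrected with normexp (offset 50) in limma 3.58.1 under R 4.3.3, log2 transformed, stripped of control spots and quantile normalized. A probe's level is the mean over spots. Its SD is over the 3 differences between spots at the same place on both arrays. Fold and detection rules stand in the report. Where 1 array did not detect a probe, the bound sets the brighter level against whichever was larger on the other array, the lowest level of any detected probe or that of the probe itself. The procedure was tested on simulated data with changes of at least 4-fold, placed in bright probes only. Smaller changes, such as those of the members, and changes of dim probes were not simulated. Tables and figures were made in Python 3.11.15. Precursors, gene spans and mature sequences are from RefSeq (GRCm38.p6).

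Named are the 9 members, detected probes of the 3p and partner lists, same-seed probes and the 5 nearest probes, with let-7j added after its values were seen. The members and lists were chosen with earlier results of these data known.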

Additional observations from a re-analysis of the deposited data

How the results depend on the processing

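The family median of -0.62 over 9 members became -0.88 with blank spots subtracted, -0.74 with cyclic loess, -1.64 without normalization, -1.41 tied to spike-in probes, -1.78 tied to 5S rRNA probes and -0.75 in the authors' values. Over the 8 detected members it became -0.72 with an offset of 16, -0.92 with blank spots subtracted, -0.77 with cyclic loess, -1.66 without normalization, -1.44 tied to spike-in probes, -1.81 tied to 5S rRNA probes and -0.75 in the authors' values. The count of members at least 2-fold lower went from 2 to 7 without normalization and with spike-in probes set equal, and to 8 with 5S rRNA probes set equal. It was 0 at a 4-fold threshold. No member was at least 2-fold higher in any setting. Over all 1265 probes the count lower, 77, was 300 with blank spots subtracted and 232 without normalization. It was 178 with spike-in and 267 with 5S rRNA probes set equal, and 7 at 4-fold. The rise in the settings without scaling or tied to control probes was thus shared with the whole array. The count higher, 50, was 81 with an offset of 16, 154 with blank spots subtracted, 6 without normalization, 6 with spike-in and 4 with 5S rRNA probes set equal, and 4 at 4-fold. All 739 detected probes had a median of 0.024 in the main setting. It shifted to -0.63 when unnormalized, -0.40 when tied to spike-ins, -0.77 when tied to 5S rRNA and 0.32 under scaling to the 75th percentile. These 4 settings differ by 1 constant each, so the family median relative to all detected probes, -1.01, is the same in them by construction.

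The 3p arm median of -0.069 turned to 0.57 with 75th percentile scaling. It was -1.12 with blank spots subtracted, -0.38 without normalization, -0.53 with 5S rRNA probes set equal, -0.16 with the third spots, -1.51 for probes detected on both arrays and -1.10 with a doubled detection threshold. The cluster partner median of -0.59 was -0.95 with an offset of 16, -0.72 without background correction, -2.41 with blank spots subtracted, -0.10 with 75th percentile scaling. Cyclic loess gave -0.51. It was -1.05 without normalization, -0.83 with spike-in and -1.20 with 5S rRNA probes set equal, -0.69 with medians over spots, -0.50 with the first spots and -0.68 in the authors' values. It was -0.71 for probes detected on both arrays and with a doubled threshold, and -0.084 with no detection filter. Causes were not tested otherwise. miR-98-5p, not detected, turned to 0.28 with blank spots subtracted and 0.65 with 75th percentile scaling. At a doubled detection threshold 4 of the 9 members were detected on day 10, beside 286 of all 1265 probes, so signal over background limits the rest. On day 0 it was 8 of the members and 457 of all probes. No paired analysis was possible because a single array stands for each day.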
